A study of Drosophila melanogaster with 18 samples.

Results

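Genes of the *Drosophila* cell cycle, 10 in number, were followed across the ovary and the brain: the cyclin genes *CycA*, *CycB*, *CycB3* and *CycE*, the Cdc25-type phosphatase genes *stg* and *twe*, the kinase genes *Cdk1* and *polo*, and *gnu* and *plu*, which encode partners of the egg-activation kinase Png. They were chosen by their FlyBase symbols, as cell-cycle genes whose mRNA is stored in the ovary, and all 10 were found among the 17288 genes of the expression table. The data are 18 RNA-seq libraries, with 3 libraries in each of 6 groups: *tud* mutant ovary, control ovary, *tud* mutant female brain, control female brain, *tud* mutant male brain and control male brain. The *tud* mutant flies were *y w* and carried the *tud*1 *bw sp* chromosome over a deficiency, Df(2R)PurP133. The control flies, named wild-type in the labels, were also *y w* and carried that same *tud*1 *bw sp* chromosome, but over CyO, a balancer chromosome with a heat-inducible *hid* transgene marked by *w*+. Both genotypes therefore had 1 copy of *tud*1, and the controls are heterozygotes. The flies are described only as young, and brains were pooled, so a library is a pool of animals.

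In the fly ovary, nurse cells load the oocyte with mRNAs that drive the first divisions of the embryo, which run before the embryo's own genome is broadly transcribed. Cyclins A, B and B3 bind Cdk1 to bring about mitosis and meiosis, Cyclin E pairs with Cdk2 to start DNA replication, and Cdc25 phosphatases switch Cdk1 on by removing inhibitory phosphates. The Png kinase, with its partners Gnu and Plu, acts at egg activation to raise the translation of stored cyclin mRNAs. Neurons and most glia of the adult brain have left the cell cycle.

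The values are FPKM, fragments per kilobase of transcript scaled to library size, and can be compared between genes of a library. Whether they were also rescaled between libraries is not stated. Comparisons between libraries, above all of ovary with brain, therefore assume a common scale. Groups were compared with limma after a transformation to log2(FPKM + 1), on which changes of weakly expressed genes come out too small. A gene entered a fit if its FPKM averaged 1 or more over the libraries fitted, and it was called if its p, adjusted by Benjamini-Hochberg over every gene in the fit, was at most 0.05. The labels call the 3 libraries of a group replicates, and the authors call them biological replicates. How they were separated is not stated, so p-values measure the spread between these libraries.

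Several facts about the libraries bear on what follows. Low values rose in steps of 1 fragment (98.5 to 99.6% of them lay within 0.15 of a whole number of steps), and the steps gave depths of 21700000 to 30300000 fragments in the ovary and 5500000 to 15400000 in the brain, if the values were not rescaled between libraries. The tissues matched their labels: 5 neuronal marker genes summed to 0.714 to 1.13 FPKM in the ovary and to 182 to 773 FPKM in the brain. Control male brain replicate 2 had 378 FPKM of *roX2*, a male-specific noncoding RNA, where the median of the 6 male brain libraries was 11873 FPKM. Control female brain replicate 3 and *tud* mutant female brain replicate 1 held more mRNA of the eggshell gene *Cp36* than any other brain library (12.3 and 3.57 FPKM), against 0.0804 to 1.30 FPKM in the other 10. The *tud* transcript itself was at 9.10, 11.6 and 12.4 FPKM in *tud* mutant ovaries, against 67.2, 61.0 and 63.2 FPKM in control ovaries (log2 fold change −2.44, SE 0.11, limma adjusted p 0.000118). In the brain its ranges overlapped, because the library labelled *tud* mutant female brain replicate 2 had 32.3 FPKM and the other 5 *tud* mutant brain libraries had 12.9 to 17.9 FPKM, against 20.2 to 36.2 FPKM in the 6 control brain libraries.

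*CycA*, whose product is needed for mitotic entry, was the most abundant of the 10 genes in the ovary by group mean. It had 754, 621 and 681 FPKM in *tud* mutant ovaries and 755, 745 and 727 FPKM in control ovaries. *CycB* followed closely, with 611, 623 and 738 FPKM in *tud* mutant ovaries and 606, 617 and 587 FPKM in control ovaries. In control ovaries the ranges of the 2 cyclins did not overlap, while in *tud* mutant ovaries they did, and *CycB* was the higher of the 2 in *tud* mutant replicates 2 and 3.

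*CycB3*, which encodes a cyclin that acts late in mitosis, and *CycE* were the least abundant of the 10 genes in the ovary. *CycB3* had 44.6, 42.0 and 44.3 FPKM in *tud* mutant ovaries and 46.5, 47.9 and 40.6 FPKM in control ovaries. *CycE* had 49.2, 38.7 and 47.9 FPKM in *tud* mutant ovaries and 45.8, 46.4 and 38.9 FPKM in control ovaries. The ranges of these 2 genes overlapped in both genotypes, and within a library *CycB* stood 12.9 to 16.7 times above *CycB3*.

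Both Cdc25 genes were present at similar ovarian levels. *twe*, the meiotic form, had 99.4, 79.2 and 87.3 FPKM in *tud* mutant ovaries and 95.4, 91.3 and 87.5 FPKM in control ovaries. *stg*, the mitotic form, had 86.4, 67.9 and 80.5 FPKM in *tud* mutant ovaries and 78.1, 70.7 and 69.4 FPKM in control ovaries. The ratio of *twe* to *stg* was 1.08 to 1.17 in *tud* mutant ovaries and 1.22 to 1.29 in control ovaries, a difference that was not tested.

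The kinase genes lay between the abundant and the scarce cyclins. *Cdk1*, which encodes the catalytic partner of the mitotic cyclins, had 283, 200 and 206 FPKM in *tud* mutant ovaries and 259, 235 and 230 FPKM in control ovaries. *polo*, which encodes a kinase of centrosomes, spindles and kinetochores, had 200, 183 and 186 FPKM in *tud* mutant ovaries and 206, 198 and 185 FPKM in control ovaries. Within an ovary library, *CycA* was 2.66 to 3.30 times as abundant as *Cdk1*, and *CycB* 2.16 to 3.57 times.

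The Png partners were unequal in the ovary, and both exceeded the kinase gene. *gnu* had 297, 261 and 271 FPKM in *tud* mutant ovaries and 288, 275 and 299 FPKM in control ovaries. *plu* had 92.2, 70.0 and 69.1 FPKM in *tud* mutant ovaries and 74.7, 70.9 and 80.2 FPKM in control ovaries. *png*, which is not among the 10 genes, had 27.4, 21.3 and 21.1 FPKM in *tud* mutant ovaries and 22.9, 27.4 and 24.7 FPKM in control ovaries. Within a library, *gnu* was therefore 10.05 to 12.8 times and *plu* 2.59 to 3.37 times as abundant as *png*.

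In control ovaries the order of the levels was *CycA*, *CycB*, *gnu*, *Cdk1*, *polo*, *twe*, *plu*, *stg*, *CycB3* and *CycE*. Only 2 neighbouring pairs in this order had overlapping ranges, *plu* with *stg* and *CycB3* with *CycE*. In *tud* mutant ovaries more neighbours overlapped, namely *CycA* with *CycB*, *gnu* with *Cdk1*, *Cdk1* with *polo*, *twe* with *stg*, *stg* with *plu*, and *CycE* with *CycB3*.

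**Figure D1:**
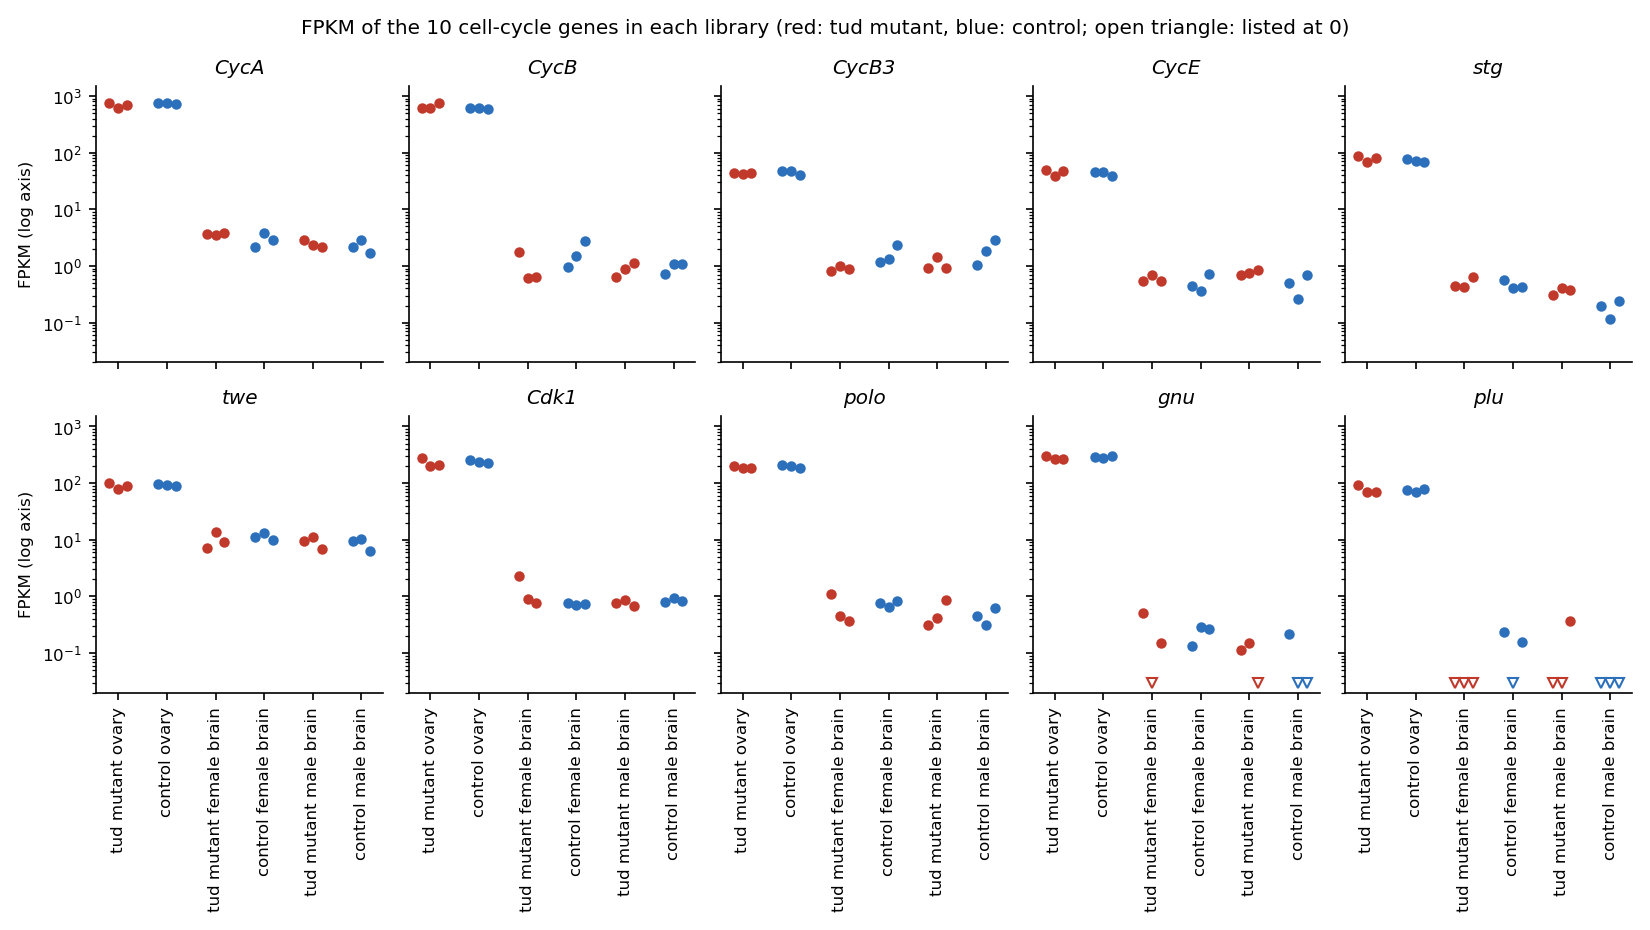
Each panel plots the FPKM of 1 gene on a log axis, with 1 point per library and 3 libraries per group. In every panel the 6 ovary libraries (red *tud* mutant, blue control) lie above the 12 brain libraries, from *twe*, with brain values of 6.23 to 13.9 FPKM, to *plu*, listed at 0 in 9 brain libraries (open triangles).

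The first comparison asked whether loss of *tud*, a gene required for germ granules, changed these transcripts in the ovary. It did not do so detectably. None of the 10 genes was called between *tud* mutant and control ovaries, while 4.09% of the 8254 genes tested were called. None had an unadjusted p under 0.05, where 18.6% of all genes did. For all 10 genes the ranges of the 2 genotypes overlapped, while they did not overlap for 24.7% of all genes tested.

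The estimates were small and had narrow intervals. *CycA* had a log2 fold change of −0.12 (SE 0.09, limma adjusted p 0.563), with a 95% interval of −0.34 to 0.10. *CycB* had a log2 fold change of 0.12 (SE 0.09, limma adjusted p 0.573), with an interval of −0.11 to 0.34. The other 8 genes lay between the 2 cyclins, from −0.09 for *Cdk1* to 0.10 for *stg*. The *Cdk1* interval was the widest of the 10, from −0.42 to 0.24, and the *polo* interval the narrowest, from −0.21 to 0.11. *gnu* and *plu*, at −0.06 and 0.02, had intervals of −0.23 to 0.12 and −0.26 to 0.30, and *png* was at −0.11 with an interval of −0.38 to 0.17. Changes larger than these bounds would lie outside the 95% intervals, but smaller ones cannot be told from 0 with 3 libraries against 3.

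**Figure D2:**
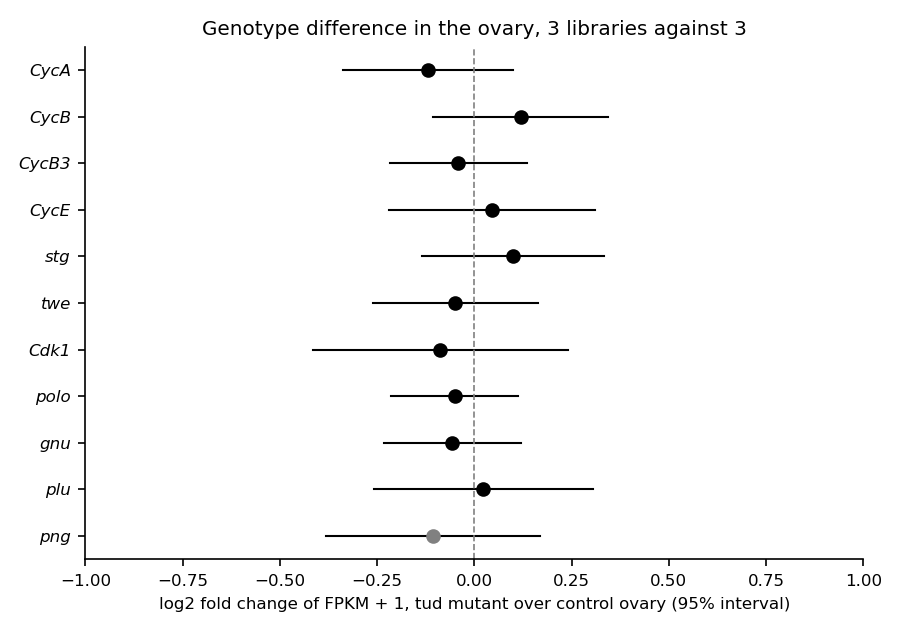
Points give the log2 fold change of FPKM + 1 in *tud* mutant over control ovaries and bars the 95% interval from limma, for the 10 genes (black) and *png* (grey). Every interval crosses 0, and the estimates run from −0.12 (*CycA*) to 0.12 (*CycB*).

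*CycB* and *plu* lie on chromosome arm 2R, and *CycE*, *twe* and *Cdk1* on arm 2L, that is, on the chromosome that is a CyO balancer in controls and a deficiency chromosome in *tud* mutants. Differences between these chromosomes and the loss of *tud* cannot be told apart for them. In the Ensembl annotation of BDGP6, the dm6 assembly, *CycB* spans 22803521 to 22806948 and *plu* 20262958 to 20263684, both with exons that no other gene overlaps. *CycE* shares 248 exonic bases with noncoding genes on the opposite strand and *twe* shares 98 with *EndoGI*. Since it is not stated whether the counting used strand, part of their values could come from those partners.

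The second comparison set the ovary against the female brain. All 10 genes were called as higher in the ovary, in both genotypes. Because they were picked as genes stored in the ovary, and 5 of them averaged under 1 FPKM in the 6 female brain libraries and passed the filter through the ovary, the count is a description and not a result. Of all 10443 genes tested, 79.6% were called between ovary and female brain in *tud* mutants and 80% in controls, with 36.1% and 35.7% called as higher in the ovary. The sizes differ widely between the genes, and these are the subject of the next paragraphs.

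*CycA*, *CycB* and *polo* showed some of the widest gaps. *CycB* had a log2 fold change, ovary over female brain, of 8.40 in *tud* mutants and 7.85 in controls (SE 0.25 each). *CycA* had 7.20 in *tud* mutants and 7.57 in controls (SE 0.14 each), and *polo* 6.89 and 6.81 (SE 0.15 each). In the brain *CycB* was listed at 0.606 to 2.72 FPKM (median 1.01), which was 0.1004 to 0.450% of the control ovary mean. *CycA*, at 1.67 to 3.88 FPKM, had 0.225 to 0.523%, and *polo*, at 0.313 to 1.10 FPKM, had 0.159 to 0.562%.

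On the log2(FPKM + 1) scale, which makes the gap of genes weak in the brain too small, it was narrower for *CycB3*, *CycE* and *stg*. *CycB3* had a log2 fold change of 4.56 in *tud* mutants and 4.16 in controls (SE 0.15 each), *CycE* 4.85 and 4.89 (SE 0.13 each), and *stg* 5.72 and 5.65 (SE 0.11 each). The brain level was 1.78 to 6.37% of the control ovary mean for *CycB3*, 0.588 to 1.92% for *CycE* and 0.156 to 0.875% for *stg*. The *stg* percents overlapped those of *polo* (0.159 to 0.562%). *CycB3* thus reached a brain level near that of *CycB*, with a ratio of *CycB* to *CycB3* of 0.370 to 2.24 over the 12 brain libraries, against 12.9 to 16.7 in the ovary.

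*twe* kept the largest share in the brain. It had 7.12, 13.9 and 9.28 FPKM in *tud* mutant female brains and 11.3, 13.1 and 9.91 FPKM in control female brains. In male brains it had 9.35, 11.1 and 6.94 FPKM in *tud* mutants and 9.69, 10.3 and 6.23 FPKM in controls. These values were 6.81 to 15.3% of the control ovary mean, and the log2 fold change, ovary over female brain, was 3.05 in *tud* mutants and 2.90 in controls (SE 0.19 each). In every brain library *twe* was the most abundant of the 10 genes, with *CycA* second by mean level, and the ratio of *twe* to *stg* was 14.6 to 91.0, where it was 1.08 to 1.29 in the ovary. The overlap of *twe* with *EndoGI* was not resolved in these values.

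**Figure D3:**
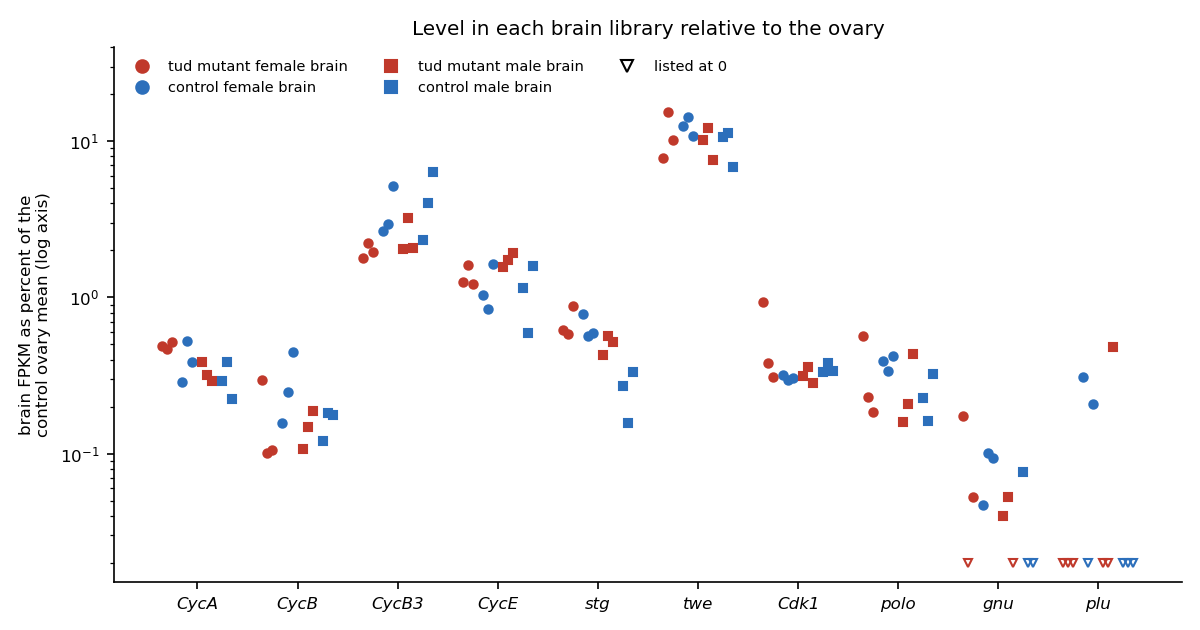
Each point is 1 brain library, given as a percent of the mean of the 3 control ovary libraries on a log axis (circles female, squares male, red *tud* mutant, blue control). The *twe* points lie between 6.81 and 15.3%, above those of the other 9 genes, and the *gnu* points reach at most 0.175%.

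*Cdk1*, *gnu*, *plu* and *png* have 1 annotated transcript each, so their brain values could be turned back into fragments, and for *Cdk1* the values came out within 0.0108 of a whole number. *Cdk1* rested on 4 to 11 fragments per brain library, 28 over the 3 *tud* mutant female brain libraries and 26 over the 3 control ones. Its FPKM was 2.27, 0.919 and 0.750 in *tud* mutant female brains, against 0.768, 0.717 and 0.736 in control female brains. The library at 2.27 FPKM, *tud* mutant female brain replicate 1, was the shallowest of all, and had 11 fragments there, as did replicate 2. From the pooled fragments, *Cdk1* was 204 times higher in the ovary than in the female brain in *tud* mutants (95% Poisson interval 141 to 307) and 327 times higher in controls (223 to 501). These intervals cover counting error only.

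*gnu* and *plu* were close to the limit of what these brain libraries could register. In *tud* mutant female brains *gnu* was listed at 0.503, 0 and 0.153 FPKM, and in control female brains at 0.134, 0.292 and 0.269 FPKM. These values stand for 3 fragments in all in *tud* mutants and 7 in controls, and 1 fragment of *gnu* was worth 0.0897 to 0.251 FPKM depending on the library. In male brains 2 fragments were found in each genotype. The ovary exceeded the female brain 1876-fold in *tud* mutants (95% Poisson interval 642 to 9096) and 1186-fold in controls (576 to 2950).

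*plu* had 3 fragments over all 12 brain libraries, 1 of them in *tud* mutant male brain replicate 3 and 2 in control female brains. No fragment was found in the 3 *tud* mutant female brain libraries, so the ovary was at least 301-fold higher there, taken against a floor of 3 fragments over the group, and the controls gave 626-fold (95% Poisson interval 173 to 5168). *png* had 12 fragments over the 12 libraries. All 3 genes of the Png complex were therefore at or near 0 in the brain, and differences between brain groups were not detectable for them at this depth.

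**Figure D4:**
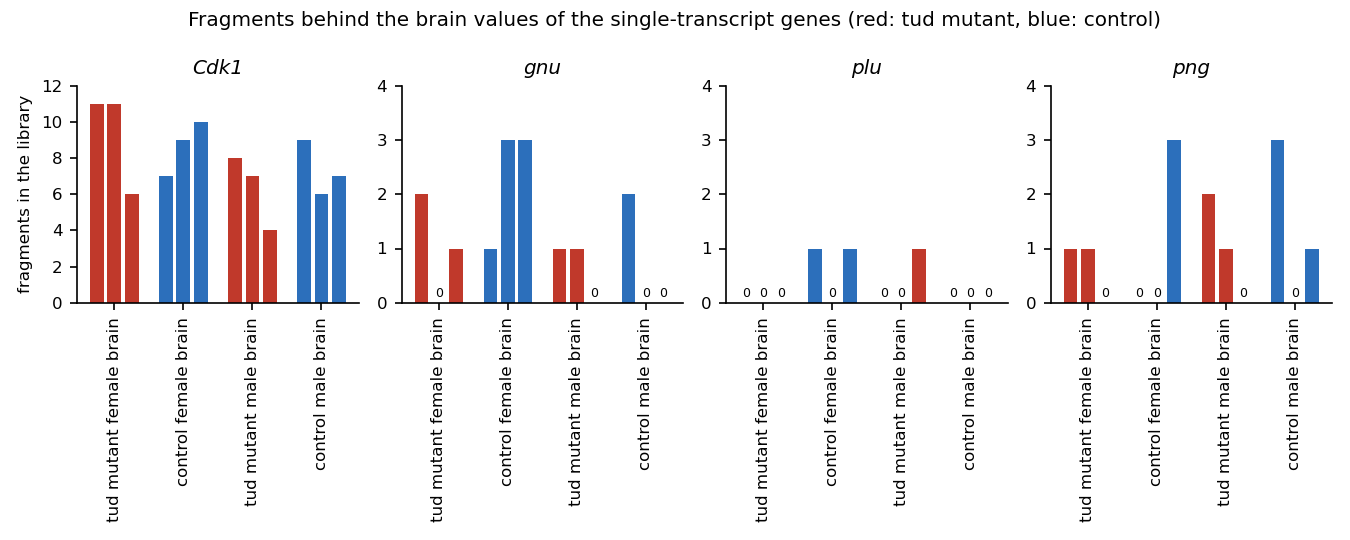
Bars give the number of fragments in each of the 12 brain libraries (3 per group, red *tud* mutant, blue control) for the genes with 1 annotated transcript. *Cdk1* has 4 to 11 fragments per library, *gnu* and *png* 0 to 3, and *plu* 0 or 1.

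Traces of eggshell mRNA stood beside some of these low values. The 2 libraries highest in *Cp36*, *tud* mutant female brain replicate 1 and control female brain replicate 3, were also the highest of their group in *CycB* (1.79 and 2.72 FPKM) and in *polo* (1.10 and 0.824 FPKM). The other genes of the 10 were not the highest of their group in both libraries. *twe* was the lowest in both (7.12 and 9.91 FPKM), and *CycB3* the lowest in the first (0.803 FPKM) and the highest in the second (2.32 FPKM). The share of all genes that were highest in both was not determined. Germline markers were mixed in these 2 libraries. In *tud* mutant female brain replicate 1, *osk* (0.544 FPKM), *otu* (0.129), *aub* (2.56) and the oocyte gene *grk* (4.66) were the highest of their group. In control female brain replicate 3, *otu* (0.369 FPKM) and *aub* (2.10 FPKM) were the highest of their group. There *grk* was at 0.470 FPKM, the lowest of the 12 brain libraries, and *osk* at 0.583 FPKM, against 0.710 FPKM in replicate 2. The 8 germline markers summed to 25.4 and 23.1 FPKM in these libraries, below replicate 2 of each group (29.5 and 23.7 FPKM). That sum also holds *nanos*, *bam*, *gcl* and *BicC*, whose values are not given here, so it need not follow the markers named above. The part of these traces in the brain values was not tested. In the ovary *Cp36* and the other 6 follicle cell markers summed to 2650 to 4341 FPKM, against 1.42 to 31.4 FPKM in the brain, with 8 germline markers at 1322 to 1440 FPKM and 14.6 to 29.5 FPKM.

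Genotype was then compared within the brain, to see whether the cell-cycle genes were among those that differ there. Only *CycA*, *CycB*, *CycB3* and *twe* had a mean of at least 1 FPKM in the 12 brain libraries and were tested. None of the 4 was called between *tud* mutant and control brains with limma, while 24.9% of the 10689 genes tested were called. Of the 4, *CycB3* had an unadjusted p under 0.05, as did 41.7% of all genes. None was called in female brains, where 0.337% of genes were, or in male brains, where 1.23% were, and none had an unadjusted p under 0.05 in either, where 16.9% and 33.2% of all genes did. The 5 neuronal markers moved with genotype, summing to 422 to 773 FPKM in *tud* mutant brains and 182 to 440 FPKM in control brains, with no overlap within a sex, and their part in these comparisons was not tested. Eye photoreceptor markers summed to 2531 to 8534 FPKM in *tud* mutant female brains and 2809 to 3115 FPKM in control female brains, and in male brains to 4340 to 6483 FPKM in *tud* mutants and 1950 to 3016 FPKM in controls, and their part was not tested either. The 8 germline markers summed to 24.0 to 29.5 FPKM in *tud* mutant female brains and 21.4 to 23.7 FPKM in control female brains, and in male brains to 24.9 to 26.3 FPKM in *tud* mutants and 14.6 to 19.9 FPKM in controls, again with no overlap within a sex. Fat body markers overlapped in females, at 1335 to 4507 FPKM in *tud* mutants and 1514 to 3111 FPKM in controls, but not in males, at 336 to 430 FPKM in *tud* mutants and 65.4 to 331 FPKM in controls. The part of neither list was tested. Between the genotypes, 1 of the 10 genes did not overlap in female brains, *CycB3*, and 1 in male brains, *stg*, where 31.7% and 35.3% of all genes tested did not. Those shares cover only genes over the filter, which *stg* is not.

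*CycB3* came nearest to the threshold and was lower in the *tud* mutants. It had 0.803, 1.01 and 0.876 FPKM in *tud* mutant female brains and 1.197, 1.33 and 2.32 FPKM in control female brains, with no overlap. In male brains it had 0.917, 1.44 and 0.934 FPKM in *tud* mutants and 1.05, 1.80 and 2.87 FPKM in controls, with overlap. The log2 fold change over both sexes was −0.44 (SE 0.19, 95% interval −0.86 to −0.01, limma adjusted p 0.112). Leaving out 1 library, control male brain replicate 1, gave −0.55 with an adjusted p of 0.0331, and it was the 1 of 12 such fits that passed the threshold.

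The other 3 genes were further from it. *CycA* had 3.62, 3.49 and 3.87 FPKM in *tud* mutant female brains and 2.15, 3.88 and 2.85 FPKM in control female brains. In male brains *CycA* had 2.87, 2.36 and 2.18 FPKM in *tud* mutants and 2.15, 2.88 and 1.67 FPKM in controls. Its log2 fold change over both sexes was 0.19 (SE 0.15, 95% interval −0.15 to 0.52, limma adjusted p 0.370). *CycB* had 1.79, 0.606 and 0.635 FPKM in *tud* mutant female brains and 0.953, 1.49 and 2.72 FPKM in control female brains. In male brains *CycB* had 0.650, 0.897 and 1.13 FPKM in *tud* mutants and 0.730, 1.10 and 1.06 FPKM in controls. The log2 fold change of *CycB* was −0.24 (SE 0.21, 95% interval −0.72 to 0.23), and that of *twe* was −0.07 (SE 0.18, 95% interval −0.48 to 0.34).

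The 6 genes under the filter were examined in a fit without it, and none was called. *stg* had 0.313, 0.410 and 0.379 FPKM in *tud* mutant male brains, all above the 0.198, 0.113 and 0.242 FPKM of control male brains. The log2 fold change in male brains was 0.21 (SE 0.08, unadjusted p 0.0313, limma adjusted p 0.153), and over both sexes it was 0.12 (adjusted p 0.192). With quantile normalization these were −0.020 and −0.054. *CycE* had 0.686, 0.759 and 0.837 FPKM in *tud* mutant male brains and 0.504, 0.257 and 0.693 FPKM in control male brains, and 0.17 over both sexes on the log2 scale (adjusted p 0.214), which was −0.046 with quantile normalization. *polo* had 0.313 to 1.10 FPKM in *tud* mutant brains and 0.319 to 0.824 FPKM in control brains.

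**Figure D5:**
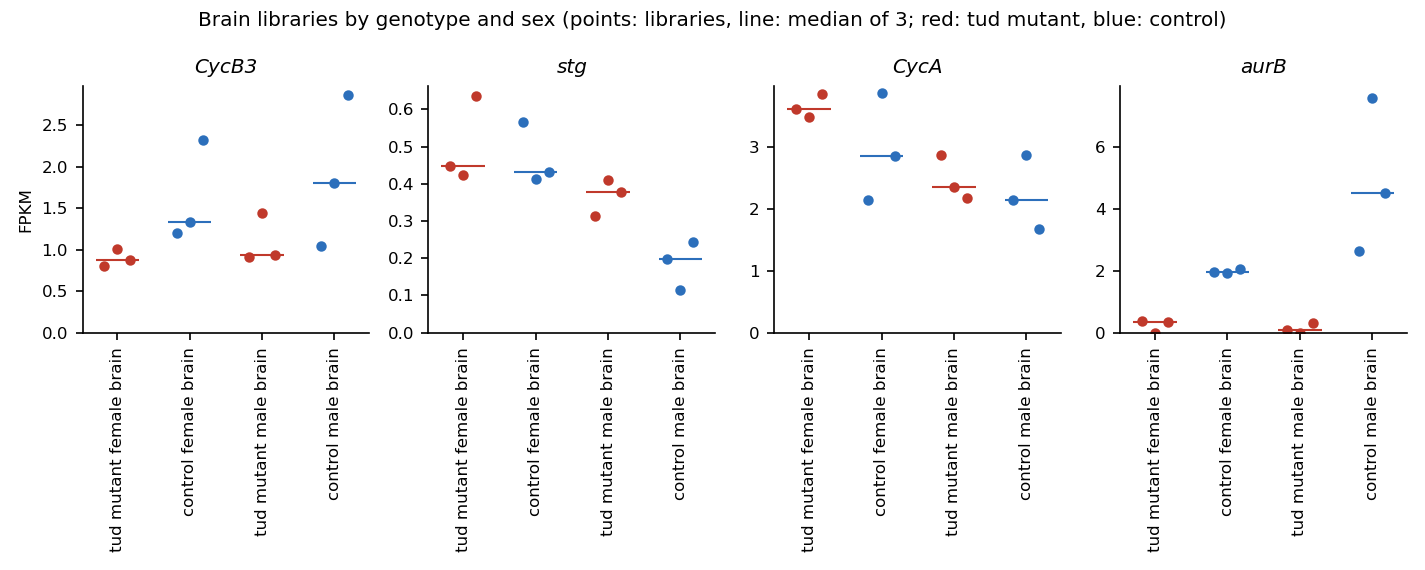
Points are the FPKM of *CycB3*, *stg*, *CycA* and *aurB* in each brain library, and lines the median of the 3 libraries of a group (red *tud* mutant, blue control, axes from 0). *CycB3* lies at 0.803 to 1.44 FPKM in *tud* mutants and 1.05 to 2.87 FPKM in controls, and *aurB* at 0 to 0.370 FPKM in *tud* mutants and 1.93 to 7.60 FPKM in controls.

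The sexes were compared within each genotype. None of the 4 tested genes was called with limma between female and male *tud* mutant brains, where 0.131% of all genes were called, or between female and male control brains, where 0.281% were. None had an unadjusted p under 0.05 in either, where 3.27% of all genes did in *tud* mutants and 9.98% in controls. *CycA* was higher in all 3 female than in all 3 male *tud* mutant libraries, 3.49 to 3.87 FPKM against 2.18 to 2.87 FPKM, with a log2 difference of 0.43 (SE 0.21, 95% interval −0.04 to 0.90). In controls the ranges of *CycA* overlapped, with a log2 difference of 0.29 (SE 0.21, 95% interval −0.18 to 0.76).

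In the fit without the filter *stg* was higher in female than in male control brains, with 0.566, 0.414 and 0.432 FPKM in females and 0.198, 0.113 and 0.242 FPKM in males. The log2 difference was 0.31 (SE 0.08, unadjusted p 0.00363), but the limma adjusted p was 0.340. In *tud* mutants the female libraries, at 0.423 to 0.636 FPKM, also lay above the male ones, at 0.313 to 0.410 FPKM. Of the 10 genes, 2 did not overlap between the sexes in *tud* mutants, *CycA* and *stg*, where 10.8% of all genes tested did not. In controls *stg*, *polo* and *Cdk1* did not, where 13.2% of all genes tested did not, and with so few genes these counts are no result about them. Both shares cover only genes over the filter, and *stg*, *polo* and *Cdk1* are under it. *Cdk1* was at 0.717 to 0.768 FPKM in control females and 0.806 to 0.924 FPKM in control males, which stand for 26 and 22 fragments over 3 libraries each, so that its difference is within counting error.

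Whether the genotype effect depended on sex or on tissue was tested directly. No gene of the 10 was called when the genotype effect of females was set against that of males (4 tested, 0 with an unadjusted p under 0.05, where 1.28% of all genes had one and 0.0187% were called). None was called for the difference between ovary and female brain either (10 tested, 0 with an unadjusted p under 0.05, where 20.2% of all genes had one and 1.05% were called). The tissue differences were −0.38 for *CycA* (SE 0.20, limma adjusted p 0.317), 0.55 for *CycB* (SE 0.35, adjusted p 0.394) and 0.40 for *CycB3* (SE 0.21, adjusted p 0.305) on the log2 scale.

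The pattern of each gene over the 18 libraries was matched to that of the 10696 genes with a mean of at least 1 FPKM, by the root mean square difference of log2(FPKM + 1) after each gene's mean was subtracted. *Cdk1* and *polo* were each other's nearest gene (0.21). *CycB* and *gnu* shared their nearest gene, *Pxt* (0.18 and 0.17). The nearest gene of *CycA* was *CG45084* (0.21), of *CycB3* *Nek2* (0.24), of *CycE* *RecQ4* (0.12), of *stg* *Mcm10* (0.14), of *twe* *Msh6* (0.14) and of *plu* *WRNexo* (0.13). The other 9 genes were far from *twe*, whose nearest of them, *CycB3*, ranked 807 (0.69). These are descriptions over 18 libraries that share their tissue groups.

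Lists of related cell-cycle genes, 7 in number, were followed beside the 10, with 87 genes in the table: G1/S regulators, DNA replication, Cdk1 regulators, the anaphase promoting complex, mitotic kinases and checkpoint, egg activation and meiosis, and condensin, kinetochore and cytokinesis. In ovary against female brain, 84 of 87 were called as higher and 2 as lower in *tud* mutants, and 83 and 2 in controls, where 36.1% and 35.7% of all genes were called as higher. Of the 87, 18 averaged under 1 FPKM in the female brain and passed the filter through the ovary, so these counts are a description. They had a median log2 fold change in controls of 2.72 for the lists, 6.45 for the 10 genes and −0.21 for all genes tested. *mtrm*, which encodes an inhibitor of Polo in the oocyte, averaged 372 FPKM in control ovaries and 1.14 FPKM in control female brains (log2 fold change 7.45, SE 0.13), and *gwl*, the Greatwall kinase gene, 103 and 0.272 FPKM (6.35, SE 0.08). *PCNA*, the replication clamp gene next to *plu*, had 6.12 (SE 0.12). The 2 lower genes were *Wee1*, which encodes an inhibitory kinase of Cdk1, with 21.5 FPKM in control ovaries and 50.7 FPKM in control female brains, and the calcineurin regulator gene *sra*, with 33.9 and 62.8 FPKM.

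Between the genotypes in the ovary none of the 87 was called with limma, and 13 had an unadjusted p under 0.05, a smaller share than the 18.6% of all genes. Of those 13, 7 were DNA replication genes, and all 17 replication genes of the list lay below 0, where 49.3% of all genes tested did, with a median log2 fold change of −0.16 for the list and 0.00 for all genes. *PCNA*, which had 123, 117 and 106 FPKM in *tud* mutant ovaries and 144, 146 and 134 FPKM in control ovaries, had the lowest of these values (−0.30, SE 0.08, limma adjusted p 0.0882). *plu*, whose annotated end lies 74 bases from *PCNA* on the same strand, was at 0.02. In the brain all 13 replication genes tested also lay below 0, with a median of −0.30 against 0.07 for all genes. Of these replication genes, 5 had an unadjusted limma p under 0.05 in the brain, where 41.7% of all genes did. In female brains 10 lay below 0 and 3 above, and in male brains all 13 lay below. The share of all genes below 0 in the brain was not determined.

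In the brain 13 of the 70 genes tested were called between genotypes, which is 18.6% against 24.9% of all genes. Among all genes 14.2% were called as higher and 10.8% as lower in *tud* mutants. Leaving out 1 library gave counts of 4 to 21. The 4 came from dropping replicate 1 of the *tud* mutant male brains, and the 21 from dropping replicate 1 of the control male brains. Over all genes, these fits called 382 and 4168, against 2666 in the main fit. The count was 5 without control female brain replicate 3, and 8 without *tud* mutant female brain replicate 2, control female brain replicate 2 or *tud* mutant male brain replicate 2. *Orc5* was called in 2 and *Cdk2* in 4 of those 12 fits, *aurA* in 5, and *smg* and *tws* in 6 and 7. The 7 that rose in *tud* mutants were *CycD*, *Cdk2*, *dap* and *E2f1* of the 9 G1/S regulators, *SAK*, *tws* and *smg*. The 6 that fell were *aurB*, *aurA*, *Orc4*, *Orc5*, *cid* and *lmgA*. *dap*, which encodes a Cdk inhibitor, had a log2 fold change of 0.78 (SE 0.15, limma adjusted p 0.0142) and *CycD*, the G1 cyclin gene, 0.52 (SE 0.12, adjusted p 0.0193). With quantile normalization 6 of the 70 were called as higher and 11 as lower. Without the 2 libraries highest in *Cp36*, only *aurB* and *SAK* of the 13 were called, and 184 of all genes were, against 2666 in the main fit. *SAK*, the gene for a centriole duplication kinase, shares 609 exonic bases with *M6* on the other strand, and *lmgA* shares exons with *lmgB* on the same strand. *Cdk2* shares 1010 exonic bases with another gene, *E2f1* 283, *Orc5* 190, *aurA* 153 and *Orc4* 33. The values of all these genes are uncertain for that reason.

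*aurB*, which encodes the Aurora B kinase of chromosome segregation, had the largest change among the 13 (log2 fold change −1.80, SE 0.21, limma adjusted p 0.00138). Its values in *tud* mutant female brains were 0.370, 0 and 0.337 FPKM, against 1.97, 1.93 and 2.05 FPKM in control female brains. In male brains it was at 0.0846, 0 and 0.308 FPKM in *tud* mutants, against 2.65, 7.60 and 4.51 FPKM in controls (log2 fold change −2.31, SE 0.30, adjusted p 0.00482). The *tud* mutant values stand for 8 fragments over 6 libraries and the control values for 209. In ovaries *aurB* had 12.5, 12.8 and 12.01 FPKM in *tud* mutants and 14.2, 16.0 and 13.8 FPKM in controls (log2 fold change −0.22, SE 0.07, adjusted p 0.184). *aurB* lies at 10856797 to 10858094 on arm 2L, so the CyO chromosome and the loss of *tud* cannot be told apart. The same holds for *Orc5* and *lmgA*, also on arm 2L, and for *Orc4*, *cid* and *dap* on arm 2R.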

How the data were processed

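The authors dissected brains and ovaries, extracted RNA with a mirVana kit, and prepared stranded total RNA libraries after ribosomal RNA depletion. Mapping to dm6 used a BDGP6 annotation, and the submitters' processing notes name TopHat2 2.0.13, Cuffnorm 2.2.1, Cufflinks, CASAVA and FastQC 0.10.1. The deposited values are FPKM per gene, 1 column per library, and 0 columns lacked a sample. Median ratios between libraries over 8854 genes were 0.983 to 1.03, so the values may already be scaled between libraries, which is not stated.

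Here log2(FPKM + 1) was fitted with limma 3.58.1 in R 4.3.3 (empirical Bayes with trend, two-sided) to the 6 ovary libraries, the 12 brain libraries as 4 groups, and the 12 libraries of ovary and female brain as 4 groups. Brain differences are the mean of both sexes. The fits were tested on simulated data. Fragments were recovered with effective lengths 200 bases below the transcript length. Poisson intervals came from scipy 1.17.1, and tables and figures from pandas 2.3.3, matplotlib 3.10.9 and numpy 2.4.6 under Python 3.11.15. Positions came from Ensembl release 115.

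The genes and lists were chosen with earlier results of these data known. All 10 genes were examined in every comparison, though not all are named in each. From the lists, up to 3 called genes per list and direction with the largest change were to be named, and *png* always. Beyond that limit, every called list gene is named for the genotype difference in the brain, and *PCNA* is named in the ovary without a call. The markers were neurons, glia, ovarian germline, follicle cells, testis, eye photoreceptors, fat body, muscle and neuroblasts. Exact zeros are given as listed at 0, since a zero can also be a failed estimate. *para*, *Mcm3* and *Orc1* were not analysed here. Alternatives were a pseudocount of 0.1, no filter or one at 5 FPKM, scaling by median ratios, quantile normalization, no trend, the replicate number as a block, only the groups of a contrast, and leaving out each library. Leaving out the 2 brain libraries highest in chorion genes was chosen after seeing the data.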

Additional observations from a re-analysis of the deposited data

Results flagged for a closer look

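The genotype difference of *aurB* differed between tissues. It was −0.22 in the ovary fit, and the difference between the ovary and the female brain effect, tested as an interaction in the fit of both tissues, was 1.07 on the log2 scale (SE 0.19, limma adjusted p 0.0275). The 3 *tud* mutant libraries lay below the 3 controls in the ovary, in female brains and in male brains alike. The call was lost with a pseudocount of 0.1 (log2 difference 2.70, adjusted p 0.0887), with quantile normalization (0.58, adjusted p 0.101), with a filter at 5 FPKM and with the replicate block (1.07 in both, adjusted p 0.0530 and 0.0774) and in 8 of the 12 fits that left out 1 library.

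The genotype difference of *tud* also differed between tissues, by −1.97 on the log2 scale (SE 0.36, limma adjusted p 0.0351), with the more negative effect in the ovary. The library labelled *tud* mutant female brain replicate 2, at 32.3 FPKM, takes part in this value. The call was lost with the replicate block (adjusted p 0.0646) and without the brain libraries highest in chorion genes (0.0573), and in 8 of the 12 fits that left out 1 library.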

How the results depend on the processing

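Over the 10 comparisons, 197 alternative fits were run, and the number of the 10 genes called was the same as in the main fit in 196 of them. The exception was the brain, where the count of genes called between genotypes ranged from 0 to 1 when each library was left out in turn, the 1 being *CycB3* without control male brain replicate 1. Part of this sameness was fixed in advance. The 10 genes were picked as stored in the ovary, and only 4 of them were tested in the main brain fits. The directions of several small, uncalled differences turned. With quantile normalization, *CycA* came to 0.00068 in the ovary and −0.031 in the brain, *CycE* to −0.046 and *stg* to −0.054 in the brain and −0.020 in male brains (the last 3 without the filter). Leaving out 1 library gave ranges for the ovary of −0.11 to 0.0046 for *CycB3*, −0.034 to 0.15 for *CycE*, −0.13 to 0.028 for *twe*, −0.25 to 0.0047 for *Cdk1* and −0.11 to 0.094 for *plu*, and for the brain of −0.19 to 0.031 for *twe*. Quantile normalization moved the median of all genes in the brain from 0.07 to −0.04, in male brains from 0.11 to −0.04, and in ovary against female brain from −0.16 to 0.19 in *tud* mutants and from −0.21 to 0.15 in controls.

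The background counts depended on the libraries. Over all alternatives 157 to 357 genes were called between genotypes in the ovary, 184 to 4168 in the brain (184 without the libraries highest in chorion genes, 4168 without control male brain replicate 1), 8 to 168 in female brains and 29 to 3381 in male brains. Between the sexes 9 to 34 were called in *tud* mutants and 10 to 60 in controls, and 2 to 7 for the difference between them. Ovary against female brain gave 6731 to 10106 in *tud* mutants and 6859 to 9864 in controls, and the tissue difference of the genotype effect 39 to 469. The 17 replication genes lay below 0 in the ovary in 14 to 17 cases when 1 library was left out, and in 17 under every scaling. *aurB* and *SAK* kept their brain call in all alternatives run. In male brains *aurB* lost its call when only the male libraries were fitted (adjusted p 0.0871), and *SAK* in 14 fits, among them a pseudocount of 0.1 (0.0509). Replicate numbers did not pair the libraries throughout, with correlations of same-numbered deviations of −0.15 to 0.37. Between control female and male brains, replicate 1 had 0.37, against at most 0.02 with another number. Replicate 3 had −0.10 there, against up to 0.40 with another number. Partial pairing is therefore possible. With the replicate block the number of the 10 genes called did not change in any comparison (0 between genotypes and between sexes, 10 between tissues), and 195 genes were called between genotypes in the ovary instead of 338, and 62 for the tissue difference instead of 110.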

Other observations

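Marker lists of other cell types were read beside the cell-cycle genes. Glial markers summed to 18.04 to 24.1 FPKM in ovaries and 2341 to 2918 FPKM in brains, eye photoreceptor markers to 0.652 to 1.34 and 1950 to 8534 FPKM, and fat body markers, which include *Yp1*, to 348 to 494 and 65.4 to 4507 FPKM. Muscle markers summed to 10.5 to 17.6 FPKM in ovaries and 18.1 to 36.8 FPKM in brains, and testis markers to 1.07 to 1.83 and 0.556 to 6.06 FPKM. Neuroblast markers, which mark dividing precursors of neurons, summed to 4.95 to 7.61 FPKM in ovaries and 1.45 to 2.80 FPKM in brains. Of them, *dpn* was listed at 0 to 0.540 FPKM and *mira* at 0.153 to 0.783 FPKM over the 12 brain libraries.

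*grk*, which encodes a signalling ligand of the oocyte, had 4.66, 3.39 and 3.99 FPKM in *tud* mutant female brains and 2.36, 1.34 and 0.470 FPKM in control female brains. In male brains *grk* had 3.28, 2.87 and 2.98 FPKM in *tud* mutants and 1.09, 0.536 and 1.29 FPKM in controls, so every *tud* mutant library lay above every control library (log2 fold change over both sexes 1.10, SE 0.21, limma adjusted p 0.0124, and 0.90 with an adjusted p of 0.0502 without the 2 libraries highest in *Cp36*). *grk* was picked from the 8 germline markers after its values were seen, and others went with it only in part. In female brains *otu* had 0.129, 0.0971 and 0.0391 FPKM in *tud* mutants and 0.0689, 0.350 and 0.369 FPKM in controls, and *osk* had 0.544, 0.110 and 0.0825 FPKM in *tud* mutants and 0.0362, 0.710 and 0.583 FPKM in controls. In male brains *otu* had 0.0886, 0.155 and 0.161 FPKM in *tud* mutants and 0.0561, 0.0483 and 0 FPKM in controls, while *osk* overlapped. *aub* had 2.28, 1.91 and 4.83 FPKM in *tud* mutant male brains and 0.962, 0.723 and 0.395 FPKM in control male brains. In female brains *aub* overlapped, with 2.56, 2.41 and 1.82 FPKM in *tud* mutants and 1.07, 1.15 and 2.10 FPKM in controls.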
